A study of Homo sapiens with 4 samples.

Results

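KITLG encodes stem cell factor, the ligand of the receptor tyrosine kinase KIT, and was set here beside the receptor kinases for which gastric carcinomas are commonly examined: the ERBB receptors EGFR, ERBB2 and ERBB3, the hepatocyte growth factor receptor MET, and the fibroblast growth factor receptors FGFR1 to FGFR4. These 10 genes were taken by name, with every probe set to which the platform annotation gives 1 of these symbols alone, which made 50 of the 54613 probe sets. KITLG was selected on its low knockout values in this very comparison, and the kinases were picked by function with earlier results of these arrays known. The knockout against control contrast therefore counts as used, and the members are described without a test.

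The samples were NUGC3 cells, a line established from a human gastric cancer, grown in RPMI1640 with fetal bovine serum. The 2 control arrays hold PRMT6 wild-type cells and the 2 knockout arrays hold PRMT6 knockout cells, in which PRMT6, an arginine methyltransferase of histones, was targeted with a lentiCRISPR v2 lentivirus, followed by puromycin and limiting dilution. Knockout clones are mentioned in the labels, but the sources used here do not give how many stand behind the 2 arrays, nor whether control cells received a vector or puromycin. Each array gives RMA log2 expression per probe set, and replicates are numbered 1 and 2 with no word on separate cultures, so p-values measure a spread that may be technical. In bulk RNA, fewer cells expressing a gene and less RNA per cell cannot be told apart.

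A receptor tyrosine kinase is switched on when its ligand brings receptor molecules together, which phosphorylate each other and recruit adaptors that feed the RAS to ERK and the PI3K to AKT pathways. KITLG is made as a membrane protein that can be shed, and KIT is best known in the stomach wall from mast cells and the interstitial cells of Cajal, the origin of gastrointestinal stromal tumours. ERBB3 binds neuregulins but has little kinase activity of its own and signals through its partners, while ERBB2 has no known ligand. Amplification of ERBB2, EGFR, MET or FGFR2 marks subsets of gastric carcinoma.

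The arrays had alike medians (4.73 to 4.77), but the quartiles of control replicate 2 lay closer together, at 3.29 and 6.62. On the other arrays they were 3.21 to 3.22 and 6.77 to 6.79. Control replicate 2 also correlated least with the others over probe sets (r = 0.991 to 0.993). PRMT6 read 7.66 on each control array and 6.87 and 6.91 on the knockout arrays, a difference of -0.77 (SE 0.086, limma adjusted p = 0.114 over all probe sets), and where its probe set lies relative to the edit is not known here. Over all probe sets, 81 were called by limma at an adjusted p under 0.05, 64 higher and 17 lower in the knockout. The file holds no detection calls, so the level of 107 olfactory receptor probe sets, genes with little expected expression in this line, served as a guide: their 95th percentile lay between 5.14 and 5.31 on the 4 arrays, and is called the olfactory receptor level below. Of the epithelial markers, 10 of 12 lay above it on every array, among them EPCAM and the keratins KRT8, KRT18 and KRT19, while TFF1 and TFF3 did not. Of the markers of mast cells, melanocytes and interstitial cells of Cajal, 1 of 4, 1 of 5 and 2 of 3 measured genes lay above it. Among those of fibroblasts, leukocytes and endothelium it was 1 of 6, 1 of 4 and 1 of 4. Of all 38 measured markers, 0 were called. At an unadjusted p under 0.05 there were 5 of them, where 10.1% of all genes passed. With an intensity trend in limma 4 were called, all 4 epithelial, where 797 of the 54613 probe sets were. Each marker was taken by its brightest probe set, whereas the 797 are over all probe sets, dim ones included, so these shares are not alike.

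The promoter of KITLG is shown first, since KITLG differed most among the members, followed by those of FGFR2 and FGFR3, which held the probe sets with the highest knockout minus control differences and were chosen for display after their values were seen. Each line gives the 250 bases before the RefSeq start, 5′ to 3′ on the gene's strand, from assembly GRCh38.p14: KITLG at chr12:88580472-88580721 on the minus strand, FGFR2 at chr10:121598445-121598694 on the minus strand (the outermost of 5 starts in the table), and FGFR3 at chr4:1793043-1793292 on the plus strand. Capitals mark 3 motifs searched on both strands: the TATA box letters TATAAA, the GC box letters GGGCGG and the CCAAT box letters CCAAT.
KITLG: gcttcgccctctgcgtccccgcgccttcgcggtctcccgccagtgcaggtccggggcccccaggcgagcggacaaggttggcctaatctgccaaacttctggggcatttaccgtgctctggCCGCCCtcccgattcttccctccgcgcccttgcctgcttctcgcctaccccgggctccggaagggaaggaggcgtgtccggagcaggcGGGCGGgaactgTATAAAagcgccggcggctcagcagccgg
FGFR2: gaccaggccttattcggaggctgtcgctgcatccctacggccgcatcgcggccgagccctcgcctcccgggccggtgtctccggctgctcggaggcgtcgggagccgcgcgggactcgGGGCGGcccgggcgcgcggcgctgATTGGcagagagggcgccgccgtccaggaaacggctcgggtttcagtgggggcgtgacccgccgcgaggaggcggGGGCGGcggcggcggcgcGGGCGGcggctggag
FGFR3: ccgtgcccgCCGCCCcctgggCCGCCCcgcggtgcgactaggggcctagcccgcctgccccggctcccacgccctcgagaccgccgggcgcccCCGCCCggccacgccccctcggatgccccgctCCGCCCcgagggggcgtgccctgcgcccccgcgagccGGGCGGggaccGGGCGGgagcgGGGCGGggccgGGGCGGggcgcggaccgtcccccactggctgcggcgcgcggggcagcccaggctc
The KITLG window held 1 TATAAA, which began 29 bases before the start, and 2 GC boxes. TATAAA was found in 10.7% of 35116 promoter windows of this length, GGGCGG in 42.6% and CCAAT in 32.0%. The FGFR2 window held 3 GC boxes and 1 CCAAT, and the FGFR3 window 8 GC boxes. Neither held TATAAA. The GC content was 69.2%, 78.4% and 86.8% for KITLG, FGFR2 and FGFR3, against a median of 58% over all windows. These are matches of letters in a window, not sites shown to be bound.

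KITLG was 2.49-fold lower in the knockout on its brightest probe set. This probe set, 226534_at, read 7.10 and 7.02 on the control arrays and 5.77 and 5.71 on the knockout arrays, a log2 difference of -1.31 (SE 0.090, n = 2 arrays per group). All 4 values stood above the olfactory receptor level, replicates lay within 0.076 of each other, and the groups did not overlap. On knockout replicate 2, however, the 5.71 lay under the 99th percentile of olfactory receptor probe sets on that array, 5.87. The other 3 probe sets of KITLG were dim on every array and carried little of this difference. Probe set 207029_at read 3.38 and 3.15 in control and 3.12 and 3.16 in knockout cells, with overlapping groups. Probe set 211124_s_at read 2.66 and 2.61 in control against 2.26 and 2.23, which is lower on both knockout arrays by 0.39 on average. Probe set 216974_at went the other way, from 1.78 and 1.82 to 1.98 and 1.93. All 3 lay at or below 3.38 on each array, under the olfactory receptor level, so the low level of KITLG rests on 1 of its 4 probe sets. In the plot of the KITLG probe sets this one stands apart from the rest.

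**Figure D1:**
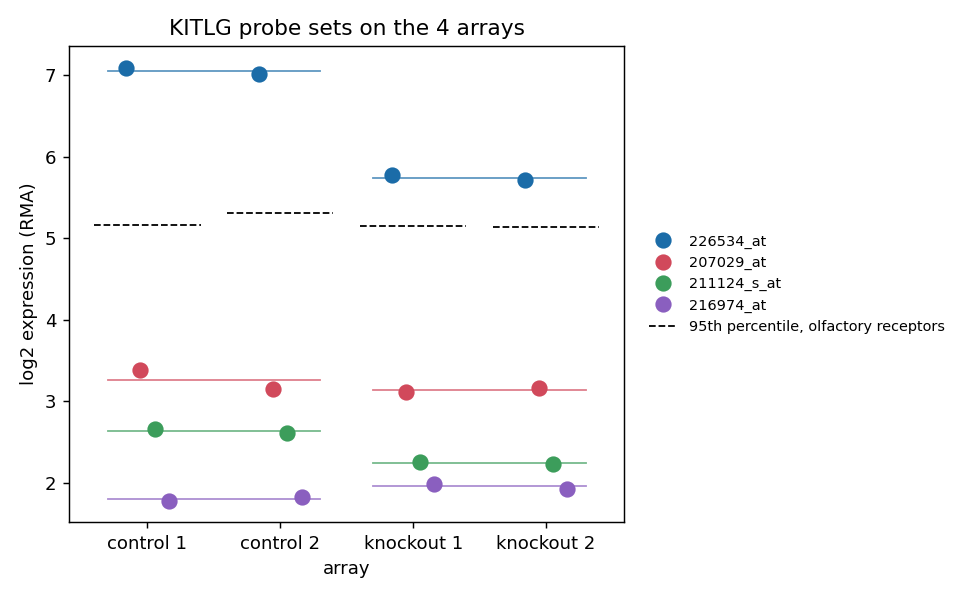
Log2 expression (RMA, y axis) of the 4 KITLG probe sets on each array (x axis). Points are single arrays, solid lines the group means of 2 arrays, and dashed lines the 95th percentile of olfactory receptor probe sets on that array. Probe set 226534_at was at 7.06 on average in control and 5.74 in knockout cells, and the other 3 lie under the dashed lines.

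KIT, the receptor for this ligand, was not shown to be expressed. Its only probe set read 2.90 and 2.99 in control and 2.70 and 2.90 in knockout cells, far under the olfactory receptor level on every array, and the groups touched: control replicate 1 and knockout replicate 2 gave the same value. Such identical values on at least 2 arrays occurred in 5.66% of all probe sets and in 3 of the 50 member probe sets (1 each of KIT, EGFR and FGFR3). Whether KIT was lower in the knockout cannot be read at this level. Of the mast cell genes, CPA3, HDC and HPGDS lay under the olfactory receptor level, and TPSAB1 alone was above it. In the other KIT lineages, ANO1 and ETV1 of interstitial cells of Cajal and MITF of melanocytes were above it on all 4 arrays. The remaining measured markers of these lineages were not.

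Across the 10 genes, 21 of the 50 probe sets stood above the olfactory receptor level on all 4 arrays and 23 on none. Only 1 of the 50, the bright KITLG probe set, passed the adjusted p threshold, against 0.148% of all probe sets. That call was lost with the replicate number as a block and without any 1 of the 4 arrays, where 0 of the 50 passed. The groups did not overlap in 25 of them, 15 higher and 10 lower in the knockout, where 38.7% of all probe sets did not overlap. The contrast was used to choose KITLG, so nothing is read from these counts. The median difference over the 50 was 0.014, against -0.0029 over all probe sets. The differences of single probe sets ran from -1.31 for KITLG to 0.89 for FGFR2, as the plot of all member probe sets shows.

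**Figure D2:**
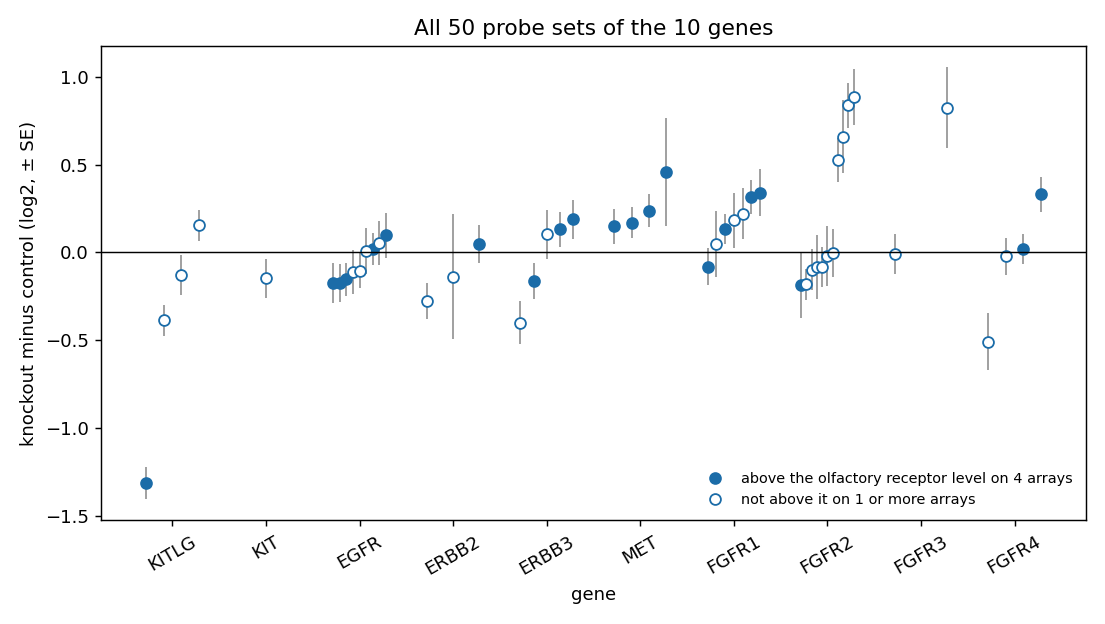
Knockout minus control difference (log2, y axis) for each of the 50 probe sets, grouped by gene (x axis), with the moderated SE as bars. Filled points were above the olfactory receptor level on 4 arrays. KITLG has 1 filled point at -1.31, the MET points all lie above 0, and 4 open FGFR2 points lie between 0.53 and 0.89.

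EGFR, the receptor of epidermal growth factor, was clearly expressed and differed little. Probe set 201983_s_at read 9.38 and 9.17 in control and 9.16 and 9.05 in knockout cells, a difference of -0.18 (SE 0.11). Probe set 201984_s_at read 8.98 and 8.77 against 8.73 and 8.67, or -0.17 (SE 0.11). Probe set 224999_at, as bright as these, read 9.23 and 9.17 against 9.26 and 9.18, or 0.021 (SE 0.091). The first pair were slightly lower on both knockout arrays by less than the gap between the control replicates, and 224999_at overlapped. Without control replicate 1 the pair gave -0.071 and -0.073, and without control replicate 2 -0.28 and -0.27. The other 2 probe sets above the olfactory receptor level gave 0.097 (-0.048 without control replicate 2) and -0.15, and the 4 dim ones lay between -0.11 and 0.054 with overlapping groups.

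ERBB2, the partner of the other ERBB receptors, was measured above the olfactory receptor level by 1 of 3 probe sets. It read 7.21 and 7.02 in control and 7.12 and 7.20 in knockout cells, a difference of 0.050 (SE 0.11; -0.023 after quantile normalization and -0.046 without control replicate 2), with overlapping groups. The dim probe set 210930_s_at read 4.76 on each control array and 4.39 and 4.57 in the knockout, and the remaining one, 234354_x_at, spread so widely that its replicates differed by 0.85 in the knockout. ERBB3 gave 7.86 and 7.67 in control against 8.01 and 7.90 on its brightest probe set, 226213_at, a difference of 0.19 (SE 0.11), or 0.092 without control replicate 2 and 0.28 without control replicate 1. Its second, 202454_s_at, gave 0.13 and the next, 1563253_s_at, gave -0.16, each with groups apart. The probe sets of ERBB3 thus did not share a direction.

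MET, the receptor of hepatocyte growth factor, was expressed on all 4 of its probe sets, each of which was higher on average in the knockout. Probe set 203510_at read 11.11 and 11.05 in control and 11.28 and 11.22 in knockout cells, or 0.17 (SE 0.090). Probe set 211599_x_at gave 8.66 and 8.54 against 8.80 and 8.70, or 0.15 (SE 0.098). Probe set 213807_x_at gave 8.03 and 7.97 against 8.29 and 8.18, or 0.24 (SE 0.095). On these 3, each knockout array lay above each control array by a small margin. The fourth, 213816_s_at, varied more, with 7.07 and 6.27 in control against 6.92 and 7.34, and its groups overlapped. Without control replicate 2 it gave 0.062 and 211599_x_at 0.088. A difference of 0.24 is a 1.18-fold change of the group means.

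The FGF receptors held the highest differences among the members, on probe sets near the limit of what the arrays show. FGFR2, known in the stomach as the epithelial receptor of FGF7 and FGF10, has 11 probe sets, which fall into a pair of patterns. On 208228_s_at it read 5.06 and 4.66 in control and 5.73 and 5.76 in knockout cells, a difference of 0.89 (SE 0.16), or 1.85-fold. On 203638_s_at it read 4.84 and 4.56 against 5.48 and 5.59, or 0.84 (SE 0.13). These lay under the olfactory receptor level on both control arrays and above it on both knockout arrays. On 203639_s_at it read 3.93 and 4.05 against 4.37 and 4.93, and on 211401_s_at 4.04 and 3.84 against 4.37 and 4.57, differences of 0.66 (SE 0.21) and 0.53 (SE 0.12) among values that stayed under that level throughout. On these 4, each knockout array was above each control array.

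The remaining 7 FGFR2 probe sets had differences between -0.19 and -0.0016 (2 of them turned positive, at most 0.037, under quantile or cyclic loess normalization), and 6 had overlapping groups. The brightest probe set of the gene, 208234_x_at, is among these: it read 5.54 and 5.95 in control against 5.40 and 5.72, or -0.19 (SE 0.19). Without control replicate 2 this value was 0.018. A summary of FGFR2 by its brightest probe set would therefore miss the differences of the 4 above. Which FGFR2 transcripts each probe set reads was not determined here.

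FGFR3 was also higher on its brighter probe set, 204379_s_at. It read 5.48 and 4.84 in control and 5.94 and 6.02 in knockout cells, a difference of 0.83 (SE 0.23), or 1.77-fold. The control replicates differed by 0.64, and control replicate 2 was the only array under the olfactory receptor level. Without that array the difference was 0.50, and without control replicate 1 it was 1.15. The second FGFR3 probe set stayed between 2.83 and 3.06. The plot of these FGFR2 and FGFR3 probe sets, chosen for it after their values were seen, shows the spread of the controls.

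**Figure D3:**
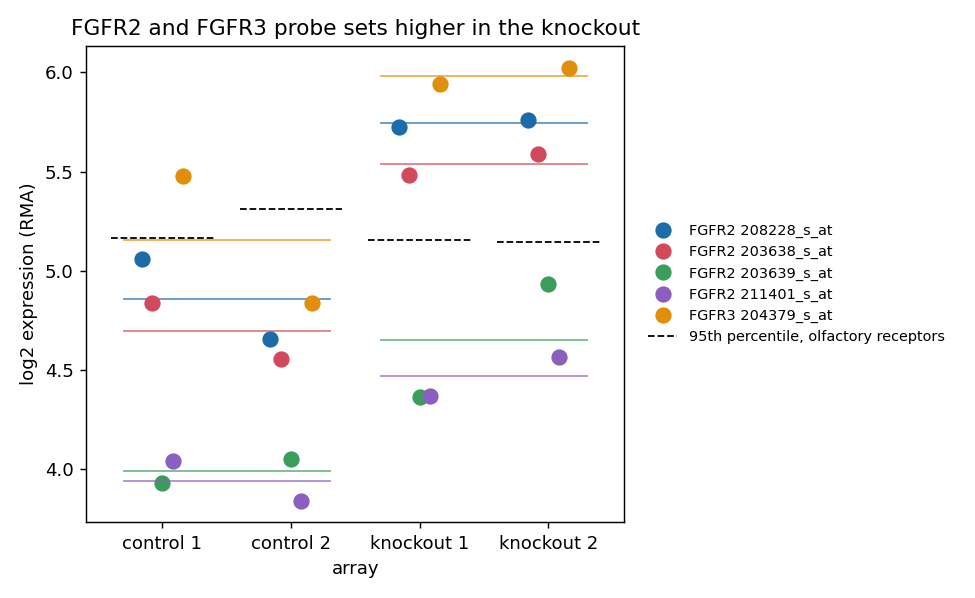
Log2 expression (RMA, y axis) of 4 FGFR2 probe sets and 1 FGFR3 probe set on each array (x axis), the ones with the highest knockout minus control differences. Points are single arrays, solid lines group means of 2 arrays, and dashed lines the 95th percentile of olfactory receptor probe sets. Knockout points lie above control points for each probe set, and most control points lie under the dashed lines.

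FGFR1 was above the olfactory receptor level on 4 of 7 probe sets. Its brightest, 211535_s_at, read 6.99 and 6.85 in control and 7.23 and 7.24 in knockout cells, or 0.31 (SE 0.096). Probe set 226705_at gave 6.41 and 6.12 against 6.54 and 6.67, or 0.34 (SE 0.13), which was 0.20 without control replicate 2 and 0.49 without control replicate 1. Both were higher on each knockout array than on each control array, as was 207937_x_at at 0.13, whereas 210973_s_at gave -0.081 with overlapping groups. FGFR4, the receptor of FGF19 in liver, gave 5.62 and 5.75 against 6.07 and 5.95 on 204579_at, or 0.33 (SE 0.10). Its equally bright probe set 1554962_a_at gave 0.020 with overlapping groups (-0.027 after quantile normalization), and the dim 1554961_at gave -0.51. As with FGFR2, probe sets of FGFR1 and of FGFR4 did not share a direction.

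Genes around these receptors were described from 6 lists, each gene by its brightest probe set. Of 121 measured list genes, 0 were called, where 0.243% of the brightest probe sets of all genes were. The unadjusted p was under 0.05 for 20 of them (16.5%), 10 in each direction, and for 10.1% of all genes. With an intensity trend in limma 10 were called. These were AXL, SDC4, ERRFI1, DUSP5, SPRY2 and EGR1, higher in the knockout, and HBEGF, SDC1, ADAM17 and DUSP6, lower. The trend fit called 797 of all 54613 probe sets, dim ones included. Its share over the brightest probe sets of all genes was not counted, so nothing is read from the 10 beside the 797. The adjusted p-values given for list genes below are those without the trend, unless stated. The median difference of the 121 was 0.040, against -0.0091 over all genes.

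Ligands of the ERBB receptors (9 measured) had a median of -0.23, with 7 negative differences, and 3 passed an unadjusted p under 0.05. Only 3 of the 9, TGFA, HBEGF and NRG1, were above the olfactory receptor level on all arrays. Among the 7 negative differences, those of EGF, EREG, NRG3 and NRG4 came from probe sets under that level on every array. HBEGF, the heparin-binding ligand of EGFR, read 11.29 and 11.36 in control and 10.95 and 10.94 in knockout cells, or -0.38 (SE 0.087, adjusted p = 0.366), with -0.42 to -0.40 on 3 further probe sets. NRG1, a neuregulin that binds ERBB3, gave -0.30 (adjusted p = 0.598), while its other 5 probe sets gave 0.074 to 0.39. BTC, betacellulin, stood opposite: 4.74 and 4.27 in control against 5.48 and 5.45, or 0.96 (SE 0.18, adjusted p = 0.263), which crossed the olfactory receptor level as the FGFR2 probe sets did. Its second probe set gave 0.48. Without an intensity trend none of these passed over all probe sets, and with it HBEGF did (limma adjusted p = 0.0086).

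Ligands of MET and the FGF receptors (19 measured) had a median of -0.12, and 4 of them were above the olfactory receptor level on all arrays. FGF5, FGF22 and HGF, the ligand of MET, gave -0.33, -0.18 and -0.21 (adjusted p = 0.547, 0.764 and 0.689), and all 3 lay between 5.17 and 5.82. The other 4 probe sets of HGF went the other way (0.020 to 0.38), those of FGF22 gave -0.058 and 0.37, and those of FGF5 -0.59 and -0.49. At an unadjusted p under 0.05 there were 2 genes, both lower. FGF7 and FGF10, ligands of FGFR2, are in this list and were not among those above that level.

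Among 26 co-receptors and other receptor kinases the median was 0.055, and 4 passed an unadjusted p under 0.05. The receptor kinase AXL read 10.89 and 10.78 in control and 11.29 and 11.24 in knockout cells, or 0.43 (SE 0.094, adjusted p = 0.342). FLT1, a receptor of VEGF, gave 0.52 (adjusted p = 0.516; -0.11 to 0.41 on 5 further probe sets), and the heparan sulphate proteoglycan SDC4, which can hold FGFs at the cell surface, gave 0.33 (adjusted p = 0.416). ERBB4 was under the olfactory receptor level on every array.

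Shedding proteases and receptor inhibitors (22 measured) had a median of 0.052, and 5 passed an unadjusted p under 0.05. LRIG1, a membrane protein that promotes the breakdown of ERBB receptors and MET, read 4.89 and 4.99 in control and 5.66 and 5.88 in knockout cells, or 0.83 (SE 0.12, adjusted p = 0.166), but its other 3 probe sets gave -0.44 to -0.29. ADAM17, which sheds ERBB ligands, gave -0.40 (adjusted p = 0.344) and the inactive rhomboid RHBDF1, which escorts ADAM17, -0.35 (adjusted p = 0.539), with 0.12 on the second RHBDF1 probe set. Adaptors and downstream signalling genes (27 measured) had a median of 0.070, and 0 passed even an unadjusted p under 0.05. FRS3, an adaptor of FGF receptors, gave -0.34 (adjusted p = 0.581), PIK3R1, a regulatory subunit of PI3K, 0.33 (adjusted p = 0.639) and STAT3 0.29 (adjusted p = 0.581), with -0.12 to 0.31 on 3 further STAT3 probe sets.

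The transcriptional targets of ERK (18 measured, all above the olfactory receptor level) had the highest list median, 0.14, with 13 positive differences and 6 at an unadjusted p under 0.05, 3 in each direction. The feedback inhibitor SPRY2 read 6.09 and 5.79 in control and 6.89 and 7.00 in knockout cells, or 1.01 (SE 0.13, adjusted p = 0.154). The immediate early factor EGR1 gave 0.70 (adjusted p = 0.301) and the feedback inhibitor SPRED2 -0.42 (adjusted p = 0.354). The plot of the lists shows that BTC, LRIG1, SPRY2 and EGR1 stand apart from the other genes on the positive side.

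Along chromosome 12, the 5 measured genes on either side of KITLG did not share its low values. Their median difference was -0.097, and 0 of the 10 were called (1 at an unadjusted p under 0.05 and with an intensity trend, DUSP6). TMTC3 and CEP290 on one side gave -0.16 and -0.12, and beyond them RLIG1, C12orf50 and MGAT4C gave 0.078, -0.28 and 0.026. On the other side LINC02458 gave 0.045, DUSP6 -0.38, POC1B -0.074, ATP2B1 -0.12 and ATP2B1-AS1 0.092. DUSP6, the phosphatase that switches off ERK, was the lowest of them, at 10.57 and 10.56 in control and 10.15 and 10.22 in knockout cells (SE 0.088, adjusted p = 0.366). Around the other members the median of the 10 neighbours lay between -0.13 for FGFR2 and 0.073 for FGFR3. Over all 100 neighbours 0 were called, and 0 with 1 probe set per gene. At an unadjusted p under 0.05 there were 5, where 10.1% of all genes passed. With an intensity trend 3 were called, where 797 of the 54613 probe sets were. Neighbours were taken by their brightest probe sets and the 797 are over all probe sets, so these shares are not alike either.

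**Figure D4:**
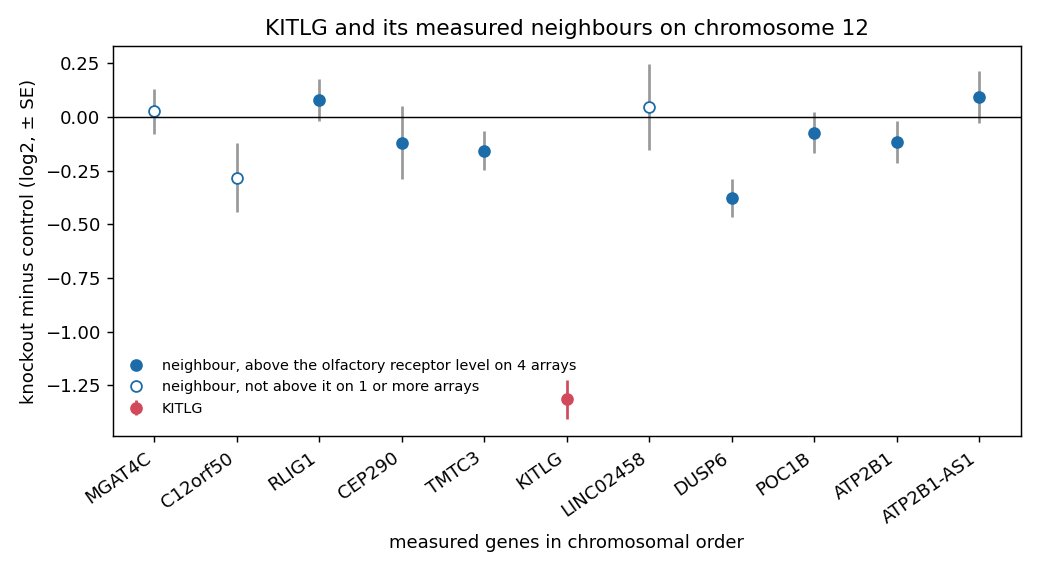
Knockout minus control difference (log2, y axis) with the moderated SE as bars for KITLG and the 5 measured genes on each side, in chromosomal order and not to distance (x axis). KITLG lies at -1.31, and the neighbours lie between -0.38 and 0.092.

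The 5 genes whose mean-centred values over the 4 arrays lay nearest to those of KITLG, by Euclidean distance on the log2 scale, were ANXA10, OAS1, CALB1, AMIGO2 and FERMT3, at distances of 0.20 to 0.23. ANXA10, a gastric annexin, read 5.39 and 5.36 in control and 4.14 and 3.83 in knockout cells. OAS1, an interferon-induced synthetase, read 6.89 and 6.83 against 5.59 and 5.76. CALB1, a calcium-binding protein, read 9.56 and 9.55 against 8.48 and 8.43. AMIGO2, an adhesion protein, read 10.19 and 10.18 against 9.04 and 9.11, and FERMT3, a kindlin of blood cells, 6.51 and 6.29 against 5.31 and 4.96. With 4 arrays this likeness means little more than a similar size of difference, and the set depended on the arrays: 0 of the 5 stayed nearest without control replicate 2 and 1 without control replicate 1.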

How the data were processed

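Total RNA of NUGC3 cells was hybridised to 4 single-colour Affymetrix arrays. Each deposited value is a log2 expression level of a probe set, for which the submitters' processing notes name RMA and affy; the sources used here give neither versions nor settings. RMA usually gives the arrays a common intensity distribution, so a change shared by most transcripts is removed, and dim probe sets have compressed differences. The number of arrays limits the precision.

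Probe sets were named from the platform annotation, in which 41091 of 54613 had 1 symbol, 1801 several and 11721 none. No probe set with several symbols held a member. Knockout and control were compared with limma 3.58.1 in R 4.3.3 (lmFit and eBayes, group as the only term, two-sided, Benjamini-Hochberg adjustment over all probe sets, called at an adjusted p under 0.05). SE is limma's moderated standard error. An exact permutation test of 2 against 2 arrays cannot go below p = 0.333. The steps were tested on simulated data with 200 changed probe sets. A median of 0% of true log2 differences of 1 was called, and 85.2% of those of 2. An uncalled gene is therefore not shown to be unchanged.

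The members and the lists were chosen with earlier results of these data known. Named were all members, PRMT6, in each list the called genes and the 3 with the largest differences above the olfactory receptor level on both arrays of a group, the 5 genes most like KITLG and its 5 measured neighbours on each side; other genes named were chosen after their values were seen. Chromosomal order came from the RefSeq gene table of GRCh38.p14. RefSeq promoters matched 8 of the 10 members. Quantile and cyclic loess normalization, a replicate block, an intensity trend, other choices of probe sets and leaving out each array were the alternatives. Some genes of the lists were not analysed here.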

Additional observations from a re-analysis of the deposited data

How the results depend on the processing

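The KITLG difference kept its sign in every alternative, between -1.36 and -1.28 over the normalizations and with any 1 array left out, and was -0.42, and no longer called, as the mean of its 4 probe sets. Its call was lost in the fit with the replicate number as a block and without any 1 array, where 0 member probe sets and 0 of all probe sets were called. The replicate numbers gave no sign of pairing the samples (r = 0.094 between same-numbered deviations, with 2 pairs). The 81 calls became 123 after cyclic loess, 167 among probe sets above the median level, 797 with an intensity trend and 94 with 1 probe set per gene. The trend called 10 list genes, against 0 otherwise, and no further member probe set (this and the other variance and filter settings for members were added after the data were seen). Of the 5 genes most like KITLG, 3 stayed so with quantile and also 3 with cyclic loess normalization, and 0 to 4 with 1 array left out. The median of the neighbours of KITLG was -0.14 with quantile and -0.13 with cyclic loess normalization, and -0.096 to -0.060 with 1 array left out. The list medians of co-receptors, of shedding proteases and inhibitors, and of adaptors moved toward 0. They were 0.010, 0.0087 and 0.018 with quantile and 0.030, 0.016 and 0.031 with cyclic loess normalization. For ERK targets the median was 0.13 and 0.14, for ERBB ligands -0.21 and -0.20, and for MET and FGF receptor ligands -0.13 and -0.12. With the 99th percentile of olfactory receptors as the level, 13 rather than 21 member probe sets lay above it on all arrays. Of 25 member probe sets above the level on at least 2 arrays, 19 kept 1 sign under 6 alternatives. Where the groups did not overlap, leaving out 1 array cannot change the sign, so for those probe sets that part was fixed in advance. FGFR2 208228_s_at and 203638_s_at are among the 25 only through their knockout arrays. Of the 150 differences under these alternatives, 144 moved by less than 1 SD of the replicates. The 6 others came from quantile or cyclic loess normalization. Leaving out 1 of 2 replicates cannot move a difference by more than that SD, so for those alternatives this count was fixed in advance. The causes of these shifts were not tested. Dim probe sets near the olfactory receptor level limit what can be said of KIT, FGFR2 and FGFR3, and of the level of KITLG in the knockout.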

Other observations

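The neighbours of EGFR and ERBB2 each held a gene that stood apart from the rest, both named after their values were seen. GRB10, an adaptor that binds several receptor kinases and is the fifth measured gene from EGFR on chromosome 7, read 7.70 and 7.39 in control and 8.61 and 8.58 in knockout cells, a difference of 1.05 (SE 0.13, limma adjusted p = 0.149). IKZF3, a lymphoid zinc finger factor near ERBB2 on chromosome 17, read 4.94 and 5.48 in control and 6.34 and 6.52 in knockout cells, a difference of 1.22 (SE 0.21, limma adjusted p = 0.236). GRB7, which is often amplified together with ERBB2, gave 0.11, and LANCL2 and VOPP1, which lie beside EGFR, gave -0.0041 and 0.062.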
